A study of Mus musculus with 6 samples.

Results

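Chemokines are small secreted proteins that guide the movement of immune cells, and they are grouped by the spacing of their first cysteines into CC, CXC, C and CX3C families. They bind G protein-coupled receptors on leukocytes, while atypical receptors take up chemokine without G protein signalling. In injured liver they are made by hepatocytes, bile duct cells, stellate cells and resident macrophages, and they recruit monocytes, neutrophils, dendritic cells and lymphocytes. The genes described here are the 62 rows, of 24532 in the deposited gene table, whose symbol begins with Ccl, Cxcl, Xcl, Cx3cl, Ccr, Cxcr, Xcr, Cx3cr or Ackr followed by a digit. They comprise 39 ligands and 23 receptors. Membership was set by symbol alone, although it was decided with earlier results of these data known.

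Liver RNA came from 6 wild-type C57BL/6 mice that all ate 0.1% DDC (3,5-diethoxycarbonyl-1,4-dihydrocollidine) for 4 weeks. DDC causes bile duct injury, inflammation and scarring. In the last 2 weeks, 3 mice were injected with recombinant human cytoglobin (rhCYGB, a globin protein) at 2 mg/kg, 2 times a week, and the other 3 with normal saline as vehicle. Tissue was collected 2 days after dosing ended, and both groups ate DDC, so the comparison is between rhCYGB and vehicle in injured livers. The labels give each mouse a number of its own without stating age or sex.

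Of the 62 genes, 55 had a count in at least 3 libraries. Cxcl15, Ccl26 and Ccr8 had no count in any library, and Ccl1, Ccr6, Ccr4 and Ccr10 had counts in 1 or 2. A further 7 genes (Ccl27b, Ccl21c, Ccr7, Ccr9, Ccr1l1, Cxcr1 and Cxcr5) were counted in at least 3 libraries but were too low for the edgeR filter. The remaining 48 genes, 34 ligands and 14 receptors, were tested among 14415 genes. Levels are given as CPM, counts scaled for sequencing depth and by TMM factors, for differences between libraries, and as FPKM, which divides by transcript length, for comparisons between genes. Values are always listed for replicates 1, 2 and 3 of a group in that order, and a fold change is rhCYGB over vehicle with its SE on the log2 scale, over 3 mice per group.

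Library totals of the estimated counts lay between 58422095 and 72431373. TMM factors were 1.07 to 1.45 in the vehicle libraries, 1.18 in rhCYGB replicate 1, and 0.744 and 0.630 in rhCYGB replicates 2 and 3. rhCYGB replicate 1 lay with the vehicle libraries for several of the genes below, and values without it are given where they differ. The hepatocyte markers Alb and Trf were present at 46059 to 141457 and 25853 to 50458 CPM, and the neutrophil marker Ly6g had no count in any library.

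With rhCYGB the tested chemokine and receptor genes were mostly lower, and no gene passed the threshold. The edgeR quasi-likelihood test called 0 of the 48 genes at an adjusted p of 0.05, with a smallest adjusted p of 0.523, and the background over all 14415 genes was 0.0%. DESeq2 and limma on log2(TPM + 1) also called 0 of the 48, although DESeq2 gave no adjusted p to 45 of them. Over all 14415 genes DESeq2 called 56, 1 lower and 55 higher, and limma on log2(TPM + 1) called 0. At an unadjusted edgeR p under 0.05 there were 13 of these genes, 10 lower and 3 higher. Over all genes tested, 2.06% were lower and 6.06% higher by the same rule. The 10 lower genes were Xcr1, Ccl11, Ccr2, Cxcl14, Ccl7, Ccl2, Ccl21a, Cx3cr1, Cxcl5 and Cxcl2, and the 3 higher genes were Cxcl13, Ccl5 and Ccl17. Ccl21a is uncertain, because the deposited tables list the gene Gm1987 on the same bases. With the counts of both summed, a choice made after seeing the data, 12 genes were at that threshold, 9 lower and 3 higher. Of all genes, 2.05% were lower by that rule. In that fit 37 of the 48 (77.1%) had a value below 0, beside 53.2% of all genes. Each of the 13 had an edgeR adjusted p of 0.523, so the folds below are descriptions of genes that did not pass the threshold.

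All 3 rhCYGB libraries lay below all 3 vehicle libraries in CPM for 12 of the 48 genes, against 7.38% of all genes tested. They lay above for 2 of the 48, against 6.02% of all genes. A fitted value below 0 was found for 38 of the 48 genes, or 79.2%, beside 53.2% of all genes, and the median log2 fold change was -0.63 beside -0.06. Receptors were lower in 13 of 14 cases (median -0.96) and ligands in 25 of 34 (median -0.51). On deposited values rescaled to TPM, where the median of all genes moves to -0.51 on the log2(TPM + 1) scale, the median of the chemokine genes was -0.83. On that scale 42 of 48 were lower, or 87.5%, beside 87.2% of all genes, so the count is at the background there. With upper-quartile scaling the median of all genes was -0.18 and that of the chemokine genes -0.77.

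**Figure D1:**
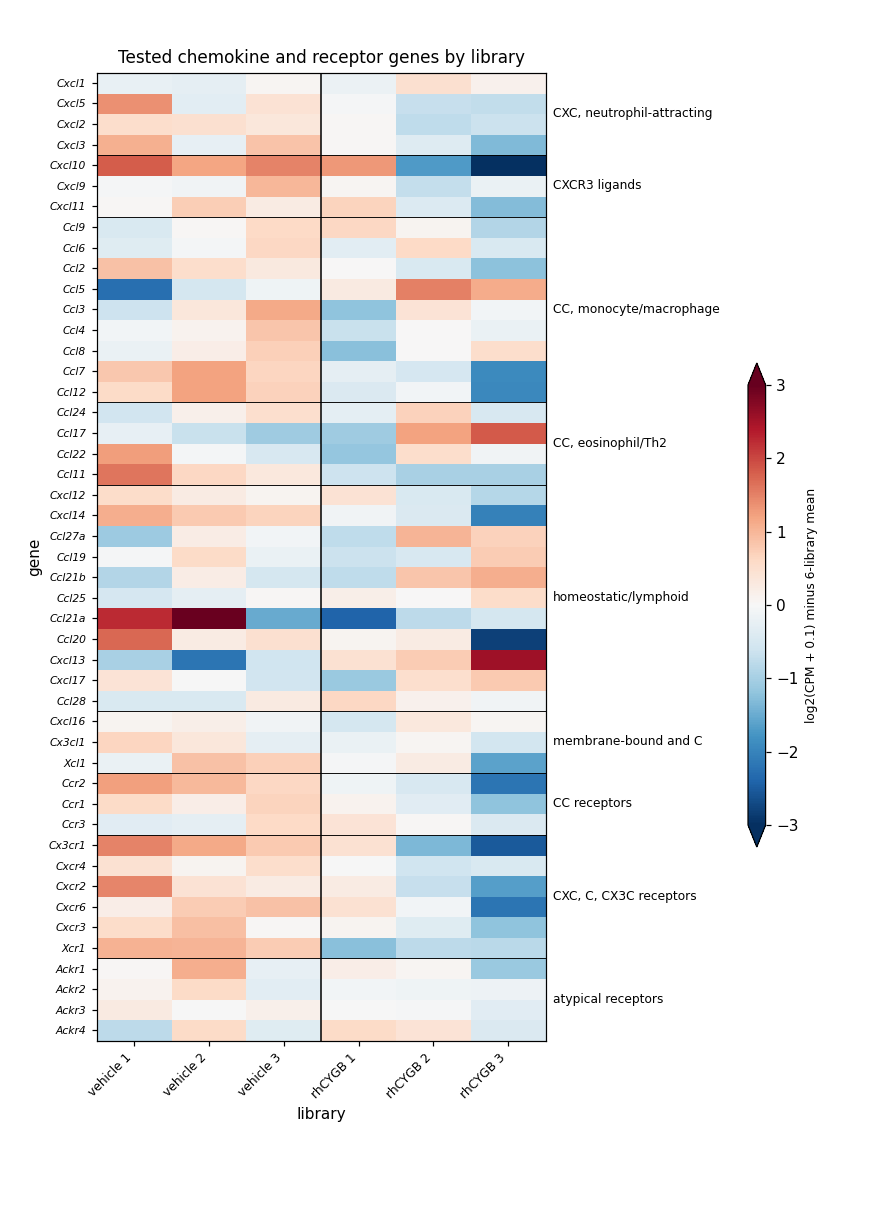
Each row is 1 of 47 tested genes, grouped by role, and each column is 1 liver library. Colour gives log2(CPM + 0.1) minus the mean of the 6 libraries, so red is above and blue below that mean. The vehicle columns are mostly red and the column of rhCYGB replicate 3 holds the lowest value for 23 of the 47 genes.

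The transcripts of this family were dominated by 3 ligands. Ccl9, Ccl6 and Cxcl12 together held 50.5% to 68.4% of the summed FPKM of the 62 genes in each library. The summed FPKM was 505, 389 and 520 in vehicle mice and 423, 276 and 150 in rhCYGB mice. The groups overlapped, because rhCYGB replicate 1 lay above vehicle replicate 2, while rhCYGB replicates 2 and 3 lay below every vehicle library. The plot of summed FPKM by library shows this make-up.

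**Figure D2:**
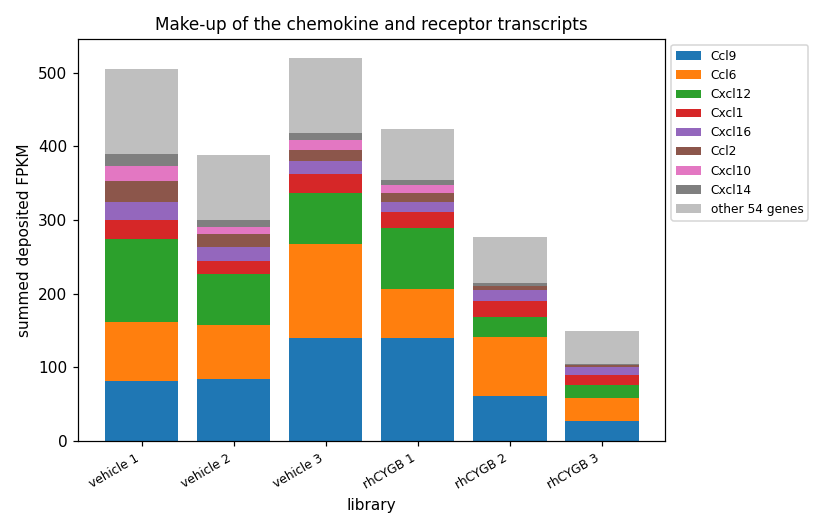
Bars give the summed deposited FPKM of the 62 genes in each library, divided into the 8 genes of highest mean FPKM and the other 54. Totals run from 150 in rhCYGB replicate 3 to 520 in vehicle replicate 3, and Ccl9, Ccl6 and Cxcl12 make up most of every bar.

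The CXC ligands that attract neutrophils through Cxcr2 were lower by the fit in 3 of 4 tested cases. Cxcl1 was the most abundant of them, at 25.7, 18.4 and 25.2 FPKM in vehicle mice and 21.5, 21.4 and 14.3 FPKM in rhCYGB mice. In CPM it was 17.0, 16.6 and 20.6 in vehicle mice and 17.6, 27.6 and 21.9 in rhCYGB mice, so the groups overlapped (log2 fold change 0.31, SE 0.26). Its sign depended on the scale, since on log2(TPM + 1) the difference was -0.44 and with the length trend removed it was -0.25. Cxcl5, made largely by epithelial cells, was 23.1, 7.07 and 11.9 CPM in the vehicle mice and 8.58, 5.40 and 5.26 CPM in the rhCYGB mice. It was highest in vehicle replicate 1, and rhCYGB replicate 1 lay above vehicle replicate 2 (log2 fold change -1.13, SE 0.47).

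Cxcl2, an early product of activated macrophages, was 2.21, 2.16 and 1.94 CPM in the vehicle mice and 1.54, 0.854 and 0.930 CPM in the rhCYGB mice. All 3 rhCYGB values lay below the vehicle values, 1.89-fold lower by the fit (log2 SE 0.39). Cxcl3 was under 0.5 CPM everywhere and had no count in rhCYGB replicate 3. Whether Cxcl1 and Cxcl2 responded differently was not tested. Among the neutrophil markers, 3 of 6 tested were lower, the summed CPM of the 8 listed was 43.4 to 72.7 in vehicle mice and 39.0 to 57.1 with rhCYGB, and Ly6g was at 0. S100a9 and S100a8, of the highest mean CPM among the neutrophil markers, had log2 fold changes of -0.37 (SE 0.35) and 0.11 (SE 0.35), both with overlap. Csf3r, the receptor for granulocyte colony-stimulating factor and also on that list, was 15.0, 10.9 and 12.5 CPM in vehicle mice and 8.28, 6.03 and 3.24 CPM in rhCYGB mice. It was the only marker of the 6 whose groups did not overlap (16.7%, beside 7.38% of all genes lower by that rule). Csf3r was chosen for mention after its values were seen. The part of neutrophil number in these ligand levels was not tested, and in whole tissue fewer cells of a type and less RNA per cell cannot be told apart.

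Many inflammatory chemokine promoters hold sites for NF-kappaB, the transcription factor of inflammatory signalling, and some hold the interferon-stimulated response element. The 250 bases before the RefSeq start of Cxcl1, Cxcl2 and Cxcl10 (GRCm38.p6) are shown because all 3 hold a match to the NF-kappaB consensus while their values differed: Cxcl2 was lower in all rhCYGB libraries, Cxcl1 overlapped, and Cxcl10 was low in rhCYGB replicates 2 and 3 only. Capitals mark matches on either strand to the NF-kappaB consensus or, in Cxcl10, also to the core of the interferon element, GAAANNGAAA, which is the capital stretch nearest the 5′ end. Sequences run 5′ to 3′ along the gene's strand and end at the base before the start.
Cxcl1, chr5:90890995-90891244, plus strand: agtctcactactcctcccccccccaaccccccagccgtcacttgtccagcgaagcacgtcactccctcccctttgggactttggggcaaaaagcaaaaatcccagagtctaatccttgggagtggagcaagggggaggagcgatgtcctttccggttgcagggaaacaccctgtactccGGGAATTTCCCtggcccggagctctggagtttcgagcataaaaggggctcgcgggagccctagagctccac
Cxcl2, chr5:90903649-90903898, plus strand: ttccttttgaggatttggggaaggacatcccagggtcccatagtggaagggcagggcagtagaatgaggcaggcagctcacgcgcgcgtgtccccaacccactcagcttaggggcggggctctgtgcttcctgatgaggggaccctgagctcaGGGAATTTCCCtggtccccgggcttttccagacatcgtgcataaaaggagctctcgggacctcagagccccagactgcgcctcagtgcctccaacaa
Cxcl10, chr5:92348890-92349139, minus strand: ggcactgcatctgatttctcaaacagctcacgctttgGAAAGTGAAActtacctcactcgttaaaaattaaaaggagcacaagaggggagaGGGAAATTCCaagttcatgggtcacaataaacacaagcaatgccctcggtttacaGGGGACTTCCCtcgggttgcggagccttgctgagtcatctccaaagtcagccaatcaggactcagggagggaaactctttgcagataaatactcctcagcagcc
Cxcl1 and Cxcl2 each had 1 capital stretch, made of a pair of overlapping matches, beginning 71 and 97 bases before the start. Cxcl10 had an interferon element match 213 bases before the start and NF-kappaB matches from 159 and 104 bases before it. The NF-kappaB consensus occurred in 11 of 53 promoters of 46 of the family's genes (20.8%) and in 7.25% of the 32851 promoters in the table. The interferon element core occurred in 3 of 53 (5.66%), those of Ccl19, Cxcl10 and Cxcl14, and in 2.98% of all promoters. A match describes these letters and shows no binding in these livers.

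The ligands of Cxcr3, which are induced by interferon-gamma and attract T cells and natural killer cells, were all lower by the fit, and none was at p under 0.05. Cxcl10 was 15.4, 10.04 and 12.3 CPM in the vehicle mice and 10.9, 1.26 and 0.159 CPM in the rhCYGB mice. rhCYGB replicate 1 was within the vehicle range and replicates 2 and 3 were far below it (log2 fold change -1.61, SE 1.15). Cxcl9 was 10.7, 10.002 and 21.7 CPM in the vehicle mice and 11.4, 6.57 and 9.46 CPM in the rhCYGB mice. Only rhCYGB replicates 2 and 3 lay below all vehicle values (log2 fold change -0.63, SE 0.39). Cxcl11 had a log2 fold change of -0.52 (SE 0.61). The receptor Cxcr3 was low throughout, at 0.509, 0.681 and 0.328 CPM in the vehicle mice and 0.339, 0.223 and 0.0797 CPM in the rhCYGB mice.

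The CC ligands that attract monocytes and macrophages held both the most abundant members of the family and members with separated groups. Ccl9, a macrophage product that binds Ccr1, was 81.9, 84.5 and 139 FPKM in vehicle mice and 140, 61.2 and 26.6 FPKM in rhCYGB mice, the highest mean FPKM of the 62 genes. Its CPM was 172, 242 and 361 in vehicle mice and 363, 250 and 129 in rhCYGB mice, and the rhCYGB values spanned the whole vehicle range (log2 fold change -0.06, SE 0.46). Ccl6, the next most abundant, was 80.2, 98.8 and 158 CPM in the vehicle mice and 82.1, 155 and 74.5 CPM in the rhCYGB mice, also with overlap (log2 fold change -0.11, SE 0.40). The signs of both changed when single libraries were left out.

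Ccl2 (gene ID 20296, chr11:82035577-82037452 on mm10), the main ligand of Ccr2 and attractant of inflammatory monocytes, was 16.1, 12.6 and 10.6 CPM in the vehicle mice and 8.77, 6.35 and 3.64 CPM in the rhCYGB mice. The groups did not overlap, and the fitted level was 2.095-fold lower with rhCYGB (log2 fold change -1.07, SE 0.38). Ccl7, another Ccr2 ligand, was 1.63, 2.18 and 1.44 CPM in the vehicle mice and 0.717, 0.594 and 0.159 CPM in the rhCYGB mice. It was 3.52-fold lower, again without overlap (SE 0.59). Ccl12, a mouse relative of Ccl2, was 0.473, 0.780 and 0.513 CPM in the vehicle mice and 0.182, 0.260 and 0 CPM in the rhCYGB mice. Its groups did not overlap, and the log2 fold change was -1.93 (SE 0.94), with -2.52 when the length trend was removed and -2.54 without rhCYGB replicate 2. Ccl3, Ccl4 and Ccl8 had fold changes of -0.63, -0.63 and -0.39 with SEs of 0.61, 0.43 and 0.60, and their CPM overlapped between groups. These values moved with the scale. With the length trend removed they were -1.32, -1.34 and -1.39, and in FPKM the groups of Ccl4 and Ccl8 did not overlap. Without rhCYGB replicate 1, Ccl8 was at 0.00823.

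Ccl5, which T cells and natural killer cells release and which binds Ccr1 and Ccr3, was higher by the fit while the other 8 genes of its role were lower. It was 0.627, 2.30 and 3.09 CPM in the vehicle mice and 4.07, 9.85 and 7.46 CPM in the rhCYGB mice. All rhCYGB values lay above all vehicle values, 3.55-fold by the fit (log2 fold change 1.83, SE 0.62). With the length trend removed the log2 fold change was 1.08, and on log2(TPM + 1) it was 1.15. Of the 4 tested natural killer cell markers 3 (75.0%) were higher with rhCYGB and not overlapping, beside 6.02% of all genes tested. The median log2 fold change of the 4 was 1.51. The summed CPM of the 5 listed was 0.864 to 2.65 in vehicle mice and 3.80 to 5.89 with rhCYGB. Gzma, a granule protease of these cells, was 0.237, 0.908 and 1.80 CPM in vehicle mice and 3.66, 3.32 and 2.50 CPM with rhCYGB. Ncr1, a defining receptor of these cells, was 0.177, 0.128 and 0.257 CPM in vehicle mice and 0.469 CPM in rhCYGB replicate 1, with no count in replicates 2 and 3. Ncr1 was chosen for mention after its values were seen. T cell markers had a median log2 fold change of -0.02, with 4 of 7 lower and a summed CPM of 2.82 to 7.07 in vehicle mice and 3.64 to 6.77 with rhCYGB. The part of these cells in the level of Ccl5 was not tested.

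**Figure D3:**
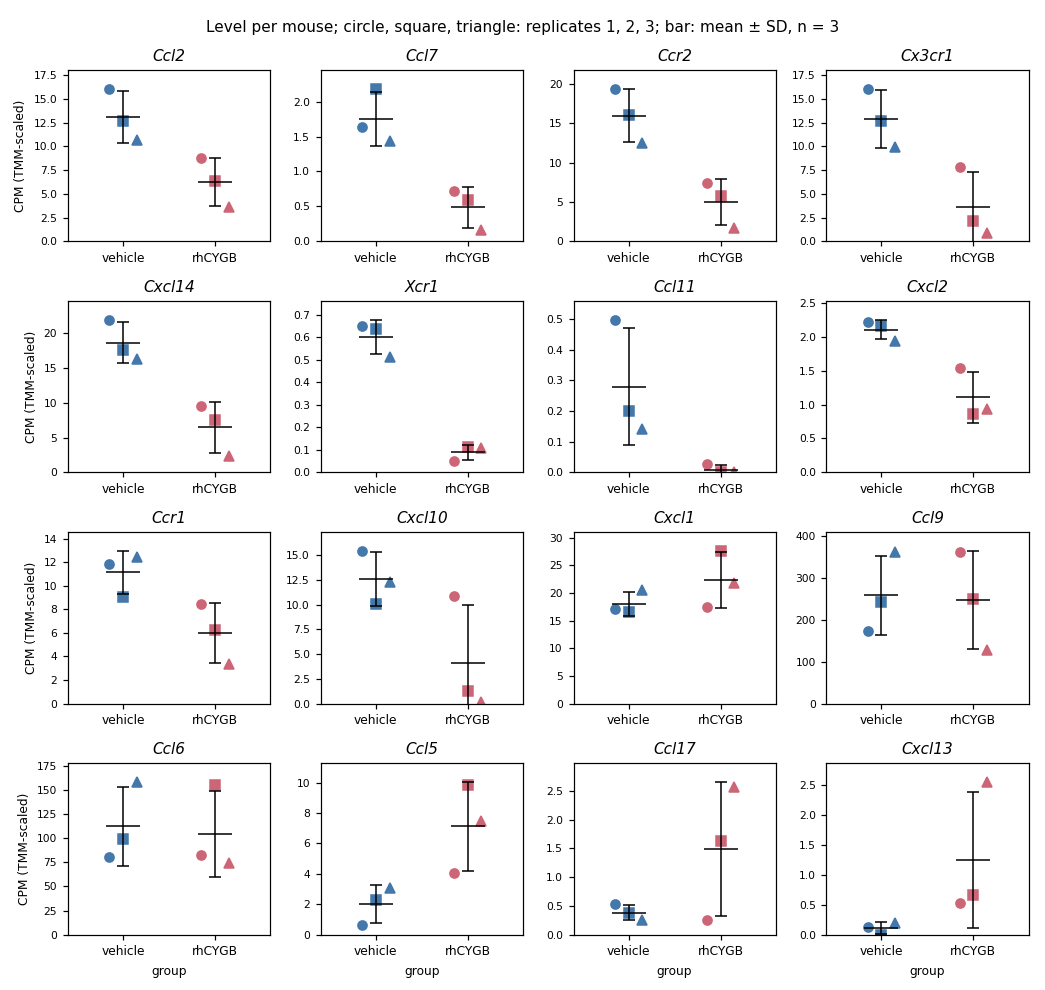
Each panel shows 1 gene, with TMM-scaled CPM on a linear axis from 0 and a symbol for each mouse, 3 per group; bars are the mean ± SD. Ccl2, Ccl7, Ccr2, Ccr1, Cx3cr1, Cxcl14, Xcr1, Ccl11 and Cxcl2 separate with rhCYGB below, Ccl5 and Cxcl13 separate with rhCYGB above, and in Cxcl10 the circle of rhCYGB replicate 1 lies within the vehicle range.

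Among the CC ligands of eosinophils and type 2 T cells, Ccl24 had the highest mean FPKM and its groups overlapped. It was 5.84, 9.76 and 12.6 CPM in the vehicle mice and 7.13, 14.2 and 6.24 CPM in the rhCYGB mice (log2 fold change -0.03, SE 0.43). Ccl17, a Ccr4 ligand made by dendritic cells, was 0.532, 0.369 and 0.257 CPM in the vehicle mice and 0.261, 1.63 and 2.58 CPM in the rhCYGB mice. It was high in rhCYGB replicates 2 and 3 only, and rhCYGB replicate 1 lay at the low end of the vehicle values (log2 fold change 1.93, SE 0.81). Its log2 value was 0.60 with the length trend removed, 0.52 on log2(TPM + 1) and 1.29 without rhCYGB replicate 3. Ccl11, the eosinophil attractant eotaxin, had 42, 14 and 10 counts in vehicle mice and 2, 0 and 0 counts in rhCYGB mice. The groups did not overlap, but the counts are too few for a fold. Ccl22, the other Ccr4 ligand, had a log2 fold change of -0.74 (SE 0.92).

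The homeostatic and lymphoid ligands were split, with 5 of 11 tested lower and a median log2 fold change of 0.31. Cxcl12, the ligand of Cxcr4 and Ackr3, was 197, 161 and 143 CPM in the vehicle mice and 181, 98.0 and 74.3 CPM in the rhCYGB mice. rhCYGB replicate 1 lay among the vehicle values and the other rhCYGB libraries below them (log2 fold change -0.51, SE 0.38). Cxcl14, a ligand of epithelia and stroma, was 21.9, 17.6 and 16.3 CPM in the vehicle mice and 9.47, 7.55 and 2.42 CPM in the rhCYGB mice. The groups did not overlap, and the fitted level was 2.86-fold lower (log2 fold change -1.52, SE 0.49). Cxcl13, which draws B cells through Cxcr5, had 11, 0 and 14 counts in vehicle mice and 40, 36 and 96 counts in rhCYGB mice. Its CPM was 0.130, 0 and 0.200 and 0.521, 0.668 and 2.55, so every rhCYGB library was above every vehicle library (log2 fold change 3.47, SE 1.17). Its size rests on few counts, with 2.41 without rhCYGB replicate 3, 4.17 without vehicle replicate 3 and 0.81 on log2(TPM + 1). The receptor Cxcr5 had no count in rhCYGB replicates 2 and 3.

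Of the stellate cell markers 5 of 6 were lower (median log2 fold change -0.74), with a summed CPM of 133 to 201 in vehicle mice and 57.6 to 156 with rhCYGB. Of the bile duct markers 3 of 5 were lower (median -0.64), and the summed CPM was 948 to 1052 in vehicle mice and 195 to 588 in rhCYGB mice, most of it from Spp1, which macrophages also make. Krt19, the keratin that defines bile duct cells, was 19.1, 22.4 and 20.5 CPM in vehicle mice and 13.4, 39.5 and 42.3 CPM with rhCYGB. The part of these cells in the levels of Cxcl12 and Cxcl14 was not tested. Hepatocyte markers were higher in 6 of 6 cases, with a median log2 fold change of 0.71.

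By FPKM, Cxcl12 was also the most abundant member with several transcripts in the deposited transcript table. The short form NM_021704 held 64.2%, 68.9% and 64.8% of the gene's FPKM in vehicle mice and 61.2%, 56.8% and 34.2% with rhCYGB. The longest form, NM_001012477 (5670 bases), held 7.35%, 6.43% and 2.47% in vehicle mice and 6.76%, 7.90% and 0.242% with rhCYGB. The form of middle length, NM_013655 (3173 bases), held 28.4%, 24.6% and 32.7% in vehicle mice and 32.0%, 35.3% and 65.5% with rhCYGB. NM_013655 exceeded NM_021704 in rhCYGB replicate 3 alone, and its share in rhCYGB replicate 1 lay within the vehicle range. Of 59 tested transcripts of the family, edgeR called 0 at an adjusted p of 0.05 (smallest 0.802), and 7 (11.9%) were at an unadjusted p under 0.05, beside 4.04% of all 19664 transcripts tested. For Ccl27a, the skin-associated ligand, the largest share of any of its 5 listed transcripts was 49.5% of the gene, and those of Ccl21b are 4 copies of the same sequence at separate loci.

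The lymphoid ligand Ccl21a had a log2 fold change of -3.86 (SE 1.52), but the deposited tables list another gene on the same bases. Its counts were 203, 285 and 6 in vehicle mice and 0, 11 and 10 in rhCYGB mice. The deposited tables place it at chr4:42772860-42773991, and the gene Gm1987 at chr4:42772860-42773993, on the same bases. Gm1987 had 8, 7 and 191 counts in vehicle mice and 187, 315 and 340 in rhCYGB mice, so the counts of the locus lay almost wholly on Ccl21a in vehicle replicates 1 and 2 and on Gm1987 in the other 4 libraries. The sums were 211, 292 and 197 in vehicle mice and 187, 326 and 350 in rhCYGB mice. With the 2 genes summed, an alternative chosen after seeing the data, the log2 fold change was 0.91 and the direction reversed. Ccl21a and its copies Ccl21b and Ccl21c are therefore uncertain as separate genes.

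Ccl21a and Ccl21b are nearly the same molecule, as the 2 stretches that tell them apart show. Over the 402 coding bases of Ccl21b in GENCODE vM21 (GRCm38), Ccl21a differed at 2, T84A and C194T, where Ccl21a's base comes first and positions count from the first coding base. The stretches below have 25 bases on either side of each difference, which is in capitals.
Ccl21a, bases 59 to 109: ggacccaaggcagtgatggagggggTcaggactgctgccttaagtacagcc
Ccl21b, bases 59 to 109: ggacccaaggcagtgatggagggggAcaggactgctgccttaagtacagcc
Ccl21a, bases 169 to 219: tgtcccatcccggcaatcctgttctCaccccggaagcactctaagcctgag
Ccl21b, bases 169 to 219: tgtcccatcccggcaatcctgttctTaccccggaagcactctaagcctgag
The log2 fold change of Ccl21b was 0.95 (SE 0.59), and Ccl21c stayed under 0.1 CPM in every library at the gene level. Both genes share bases at each of the 4 listed loci, such as chr4:41903649-41904743 for Ccl21b and chr4:41903613-41904743 for Ccl21c. The division of counts between them is therefore uncertain too. In rhCYGB replicate 3 those loci of Ccl21b had 112, 146, 138 and 119 counts, while the gene-level sum of Ccl21a, Ccl21b and Ccl21c was 159. The gene-level values are thus not sums over the loci. For the pair Ccl27a and Ccl27b, 96.8% to 98.3% of the counts were on Ccl27a, which also overlaps Il11ra1. Overlaps with other genes were found for Cxcl16, Ccl6, Cxcl10, Cxcl11, Cxcl17, Ackr4 and Cxcr6 too, and how strand entered the counting is not given in the sources used here. Genes listed at several loci, such as Ccl21b, Ccl21c and Ccl27b, were not covered by that search.

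The membrane-bound ligands Cxcl16 and Cx3cl1, which are also cleaved from the cell surface, overlapped between groups. Cxcl16 was 42.5, 44.8 and 37.2 CPM in the vehicle mice and 27.8, 49.3 and 41.2 CPM in the rhCYGB mice (log2 fold change -0.07, SE 0.28). Cx3cl1 was 8.62, 7.05 and 4.53 CPM in the vehicle mice and 4.84, 5.71 and 3.72 CPM in the rhCYGB mice (log2 fold change -0.50, SE 0.35). The C ligand Xcl1, which binds Xcr1, was under 0.5 CPM in every library, with a log2 fold change of -1.10 (SE 1.00).

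Among the CC receptors, Ccr2 and Ccr1 were lower by the fit. Ccr2 (gene ID 12772, chr9:124102183-124109140 on mm10), which brings monocytes out of the bone marrow and into inflamed tissue, was 19.4, 16.1 and 12.5 CPM in the vehicle mice and 7.40, 5.77 and 1.70 CPM in the rhCYGB mice. The groups did not overlap, and the fitted level was 3.22-fold lower (log2 fold change -1.69, SE 0.52). Ccr1, the receptor of Ccl9 and Ccl6, was 11.8, 9.05 and 12.5 CPM in the vehicle mice and 8.46, 6.22 and 3.35 CPM in the rhCYGB mice. Its groups did not overlap (log2 fold change -0.89, SE 0.38). Ccr3 had a log2 fold change of -0.00717 (SE 0.62).

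The receptors of the other families were lower in 6 of 6 tested cases, with a median log2 fold change of -1.29. Cx3cr1, the receptor of Cx3cl1 on patrolling monocytes and macrophages, was 16.1, 12.7 and 9.94 CPM in the vehicle mice and 7.81, 2.17 and 0.903 CPM in the rhCYGB mice. The groups did not overlap, and the fitted level was 3.53-fold lower (log2 fold change -1.82, SE 0.73). Cxcr4 was 4.85, 3.73 and 5.15 CPM in the vehicle mice and 3.51, 2.30 and 2.55 CPM in the rhCYGB mice, without overlap (log2 fold change -0.71, SE 0.33). For Cxcr2, the neutrophil receptor, the log2 value was -1.39 (SE 0.63), and for Cxcr6, the receptor of Cxcl16, it was -1.04 (SE 1.01), both with overlapping groups.

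Xcr1 (gene ID 23832, chr9:123852315-123862029 on mm10), the receptor that marks cross-presenting dendritic cells, had the smallest p of the family. It was 0.651, 0.638 and 0.513 CPM in the vehicle mice and 0.0521, 0.111 and 0.106 CPM in the rhCYGB mice. Every rhCYGB library, replicate 1 included, was far below the vehicle libraries, 6.72-fold by the fit (log2 fold change -2.75, SE 0.59). On log2(TPM + 1), a scale that compresses differences at low levels, it was -0.34, and on log2(TPM + 0.1) it was -1.64. In counts this was 55, 45 and 36 in vehicle mice and 4, 6 and 4 in rhCYGB mice. All 9 dendritic cell markers were lower (median log2 fold change -1.14). For 5 of them (55.6%) the groups did not overlap, beside 7.38% of all genes lower by that rule. Their summed CPM was 27.7 to 37.5 in vehicle mice and 13.6 to 19.6 with rhCYGB, most of it from Itgax. Clec9a, of the dendritic cell type that Xcr1 marks, was 2.65, 2.47 and 2.35 CPM in vehicle mice and 2.19, 1.22 and 1.22 CPM with rhCYGB. Batf3 and Flt3, also on that list, had log2 fold changes of -0.14 (SE 0.40) and -0.02 (SE 0.64), with overlapping groups. The part of dendritic cell number in the level of Xcr1 was not tested.

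Beside Ccr2, Cx3cr1 and Ccl2 stand the markers of monocytes and macrophages. All 7 tested were lower by the fit (median log2 fold change -0.35), but their summed CPM overlapped, at 944 to 1826 in vehicle mice and 818 to 1543 in rhCYGB mice. Lyz2 and Csf1r, of the highest mean CPM among them, had log2 fold changes of -0.35 (SE 0.44) and -0.11 (SE 0.29), and Lyz2 made up most of the sum, at 562 to 1356 CPM. For 2 of the 7 (28.6%), Itgam and Ly6c2, the groups did not overlap, beside 7.38% of all genes lower by that rule. Itgam and Ly6c2 were chosen for mention after their values were seen. Itgam, an adhesion integrin of myeloid cells, was 15.8, 9.97 and 13.1 CPM in vehicle mice and 8.08, 2.71 and 0.823 CPM with rhCYGB (log2 fold change -1.74, SE 0.73). Ly6c2, a marker of inflammatory monocytes, was 1.24, 1.80 and 1.41 CPM in vehicle mice and 0.938, 0.946 and 0.8499 CPM with rhCYGB (log2 fold change -0.70, SE 0.38). Markers of resident Kupffer cells were lower in 2 of 6 cases (median 0.06), with a summed CPM of 684 to 781 in vehicle mice and 550 to 883 in rhCYGB mice. The part of these cells in the receptor levels was not tested.

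The atypical receptors, which scavenge or transport chemokine, were lower by the fit in 3 of 4 tested cases. Ackr1 was 0.722, 1.60 and 0.570 CPM in the vehicle mice and 0.808, 0.724 and 0.266 CPM in the rhCYGB mice. Ackr2, a scavenger of inflammatory CC ligands, was 2.16, 3.05 and 1.58 CPM in the vehicle mice and 1.88, 1.84 and 1.78 CPM in the rhCYGB mice, with overlap in both genes. Ackr3, which takes up Cxcl12, was 1.62, 1.319 and 1.51 CPM in the vehicle mice and 1.316, 1.299 and 1.04 CPM in the rhCYGB mice. Its groups were separated by a narrow gap between 1.316 and 1.319 CPM, and the log2 fold change was -0.28 (SE 0.36). Over the 4 genes the log2 fold changes ran from -0.67 to 0.48.

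**Figure D4:**
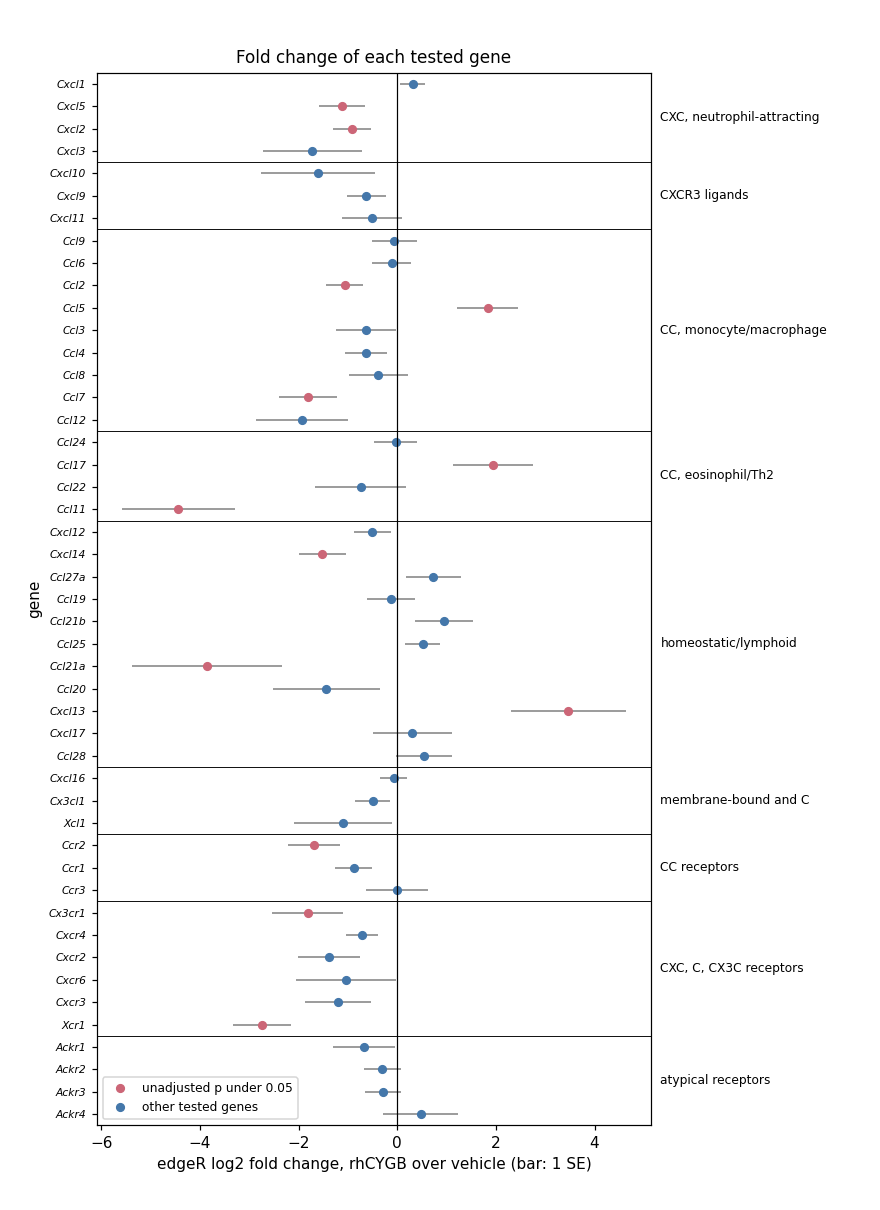
Points give the edgeR log2 fold change of 47 tested genes, rhCYGB over vehicle, with bars of 1 SE, grouped by role. Red marks the 13 genes at an unadjusted p under 0.05, and 12 of the 13 receptors at the bottom lie left of 0.

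Several members are neighbours in the genome, in groups that were formed by duplication. On mm10 the stretch chr11:82035577-82179812 holds Ccl2, Ccl7, Ccl11, Ccl12, Ccl8 and Ccl1, and all 5 tested genes were lower with a median log2 fold change of -1.81. The other group on that chromosome, chr11:83525779-83664683, holds Ccl5, Ccl9, Ccl6, Ccl3 and Ccl4, with 4 lower, 1 higher and a median of -0.11. Cxcl9, Cxcl10 and Cxcl11 lie side by side at chr5:92321331-92363296 and were all lower (median -0.63). Other groups were mixed. Cxcl5, Cxcl3, Cxcl15, Cxcl1 and Cxcl2 at chr5:90759298-90905938 had 3 lower and 1 higher among 4 tested (median -1.02). Ccl22, Cx3cl1 and Ccl17 at chr8:94745684-94812036 had 2 lower and 1 higher (median -0.50). No test of position was made.

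Other genes of chemokine signalling were also mostly lower by the fit. A list of such genes holds G protein subunits, phosphoinositide kinases, Rac activators, arrestins and receptor kinases. It also holds phospholipases C, RGS proteins, Dpp4, Ccrl2, Cmklr1, and the platelet chemokines Pf4 and Ppbp, whose symbols the selection rule misses. Pf4 and Ppbp had log2 fold changes of -0.46 (SE 0.52) and -0.43 (SE 1.01), with overlapping groups. Of the 29 tested genes of the list, 24 were lower, or 82.8% beside 53.2% of all genes, with a median log2 fold change of -0.42. At an unadjusted edgeR p under 0.05 there were 2 (6.90%), both lower, beside 8.12% of all genes in either direction and 2.06% lower. These 2 encode the phosphoinositide 3-kinase gamma complex, which acts below chemokine receptors in leukocytes. Pik3cg, its catalytic subunit, was 5.34, 3.28 and 3.99 CPM in vehicle mice and 1.89, 2.08 and 0.531 CPM with rhCYGB. Pik3r5, its regulatory subunit, was 5.45, 4.68 and 7.07 CPM in vehicle mice and 2.92, 3.54 and 2.07 CPM with rhCYGB. The groups did not overlap for either gene, and the adjusted p was 0.523 for both by edgeR. The genes of the list with the highest mean CPM, Gnb2 and Gnai2, had log2 fold changes of 0.72 (SE 0.44) and -0.08 (SE 0.25).

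Leaving out rhCYGB replicate 1 changed the calls. The labels give no reason to exclude this library. It lay with the vehicle libraries for several genes, so a fit without it sets the groups further apart for those genes. The adjusted p values of the fit without it are given as descriptions. In that fit, with 3 vehicle and 2 rhCYGB libraries, edgeR called 15 of the chemokine and receptor genes at an adjusted p of 0.05, 12 lower and 3 higher, against a background of 10.5% lower and 12.7% higher. The lower genes included Cxcl10, Cx3cr1, Ccl11, Xcr1, Ccl7, Ccr2, Cxcr2, Cxcl14, Ccl2, Ccr1 and Cxcl12, and the 3 higher genes were Cxcl13, Ccl17 and Ccl5. Cxcl10 then had a log2 fold change of -4.10 (adjusted p = 0.0216 by edgeR). The corresponding values were -3.06 for Cx3cr1 (adjusted p = 0.0212), -2.09 for Ccr2 (adjusted p = 0.0307) and 2.11 for Ccl5 (adjusted p = 0.0414). At an unadjusted p under 0.05 the fit without rhCYGB replicate 1 had 20 of the 48 genes (41.7%), beside 42.0% of all genes, so that count is at the background. Leaving out any of the other 5 libraries gave 0 calls by edgeR. At an unadjusted edgeR p under 0.05 there were 6 and 8 genes without rhCYGB replicates 2 and 3, beside 3.25% and 2.48% of all genes. Without vehicle replicates 1, 2 and 3 there were 6, 7 and 9, beside 2.04%, 3.52% and 2.7% of all genes. limma-voom with sample quality weights on all 6 libraries called 17, 13 lower and 4 higher, against 13.9% and 16.1% of all genes. Its 23 genes at an unadjusted p under 0.05 (47.9%) stand beside 46.0% of all genes, also at the background.

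**Figure D5:**
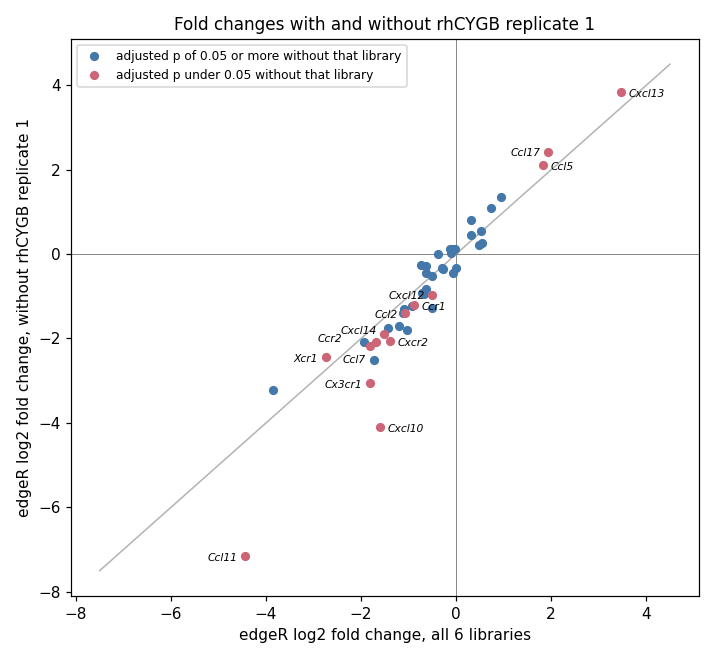
Each point is 1 of 47 tested genes, with its edgeR log2 fold change from all 6 libraries on the horizontal axis and from the 5 libraries without rhCYGB replicate 1 on the vertical axis; the grey line marks equal values. Red and named are 14 genes at an adjusted p under 0.05 in the second fit. Of these, Cxcl10 and Cx3cr1 lie well below the line; Ccl11 does too, but its rhCYGB counts are 0 in the second fit, so its fitted value is no measure of size.

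The libraries also differed for this family as a whole. The median deviation of the 48 genes from their 6-library means was 0.23, 0.25 and 0.33 in vehicle mice and -0.03, -0.06 and -0.54 with rhCYGB on the log2(CPM + 0.1) scale. rhCYGB replicate 3 held the lowest value for 24 of 48 genes (50.0%), beside 33.4% of all genes tested. Tested members were shorter than other genes, with a median transcript length of 1362.5 bases beside 2752 over all genes tested, and receptors (2878.5 bases) were longer than ligands (1040.8 bases). With each library's trend on transcript length removed, 39 of 48 were lower, beside 50.3% of all genes, and the median log2 fold change was -0.89 beside -0.00398.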

How the data were processed

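RNA of 6 mouse livers was made into stranded poly(A) libraries and sequenced in pairs, per the labels' protocols. The gene and transcript tables hold estimated counts, as the authors deposited them, and FPKM, also the authors' own values. HISAT2 2.1.0, StringTie 1.3.4d, FastQC 0.11.7 and mm10 are named in the submitters' processing notes. StringTie estimates coverage, so the division of reads among copies and isoforms is its own and the replicate spread sets the precision.

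Counts were compared with edgeR 4.0.16 in R 4.3.3 (filterByExpr, TMM, robust quasi-likelihood F test, Benjamini-Hochberg over all genes kept, threshold 0.05), and likewise for transcripts. The SE was taken from the F value as the fold change divided by its root. FPKM were rescaled to TPM for limma 3.58.1. Replicate numbers pair no animals. Alternatives were DESeq2 1.42.0 and its size factors, upper-quartile factors, no filter, at least 1 CPM in 3 libraries, limma-voom with sample quality weights, log2(TPM + 1) and log2(TPM + 0.1), a loess length trend (span 0.3) removed, each library left out, and Ccl21a summed with Gm1987. The script was checked on simulated counts.

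The members, roles and lists were chosen with earlier results of these data known. Given by library were the 2 members of each role with the highest mean FPKM, those at an unadjusted p under 0.05 and those whose groups did not overlap. Of other lists the 2 genes of highest mean CPM could be named. Gzma, Krt19 and Clec9a were within that rule but were also chosen after their values were seen. So were the genes outside these rules (Cxcr3, Cxcr5, Ly6g, Csf3r, Ncr1, Batf3, Flt3, Itgam, Ly6c2, Pik3cg and Pik3r5). Pf4 and Ppbp, also outside these rules, were named with their values known, as chemokines that the symbol rule misses. Of lists not described above, sinusoidal endothelium had 4 of 6 tested markers lower, platelets 1 of 3 and B cells 0 of 1. RefSeq promoters matched 46 members. The values of 1 tested receptor gene are not reported here; it stays in the counts and medians over the family and is left out of the plots.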

Additional observations from a re-analysis of the deposited data

How the results depend on the processing

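No paired analysis was possible because the replicate numbers name animals that belong to a single group each. At an adjusted p of 0.05, 17 chemokine and receptor genes were called by limma-voom with quality weights and 0 to 15 when 1 library was left out, the 15 without rhCYGB replicate 1, and 0 by the other alternatives. DESeq2 gave no adjusted p to 45 of the 48 genes, and it called 56 of all 14415 genes. It had 17 of the 48 at an unadjusted p under 0.05 (35.4% beside 13.3% of all genes). At that unadjusted threshold the count was 23 with quality weights (47.9% beside 46.0% of all genes), 21 on log2(TPM + 1) (43.75% beside 8.32%) and 22 on log2(TPM + 0.1) (45.8% beside 8.10%). It was 6 to 20 with 1 library left out, and the 20, without rhCYGB replicate 1, are 41.7% beside 42.0% of all genes. Non-overlapping groups numbered 30 without rhCYGB replicate 1, or 62.5% beside 64.3% of all genes. With any other library left out they numbered 16 to 23, or 33.3% to 47.9%, beside 16.1% to 21.3% of all genes. The median log2 fold change on log2(TPM + 0.1) was -1.32. Past an adjusted p of 0.05 by edgeR there were 0 to 2 transcripts with 1 library left out, the 2 without rhCYGB replicate 1. The share over all transcripts in those fits is not given here, so these counts have no background beside them.

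Of 28 genes under the alternatives, 22 kept their direction throughout. Cxcl1 reversed to -0.44 on log2(TPM + 1), -0.45 on log2(TPM + 0.1) and -0.25 with the length trend removed. Ccl9 became 0.016 with the length trend removed and -0.45 to 0.26 with 1 library left out. With quality weights Ccl6, Ccl24 and Cxcl16 became 0.046, 0.15 and 0.23. With 1 library left out their values ran from -0.52 to 0.21, -0.49 to 0.23 and -0.26 to 0.12. Ccl21a summed with Gm1987 became 0.91. Fold changes moved by over 1.5 times for 16 of the 28 on log2(TPM + 1), 25 on log2(TPM + 0.1), 4 with the length trend removed, 2 with quality weights and 1 to 4 with 1 library left out. On log2(TPM + 0.1) the median of all genes was -0.75. The cause of these changes was not tested. Genes under 1 CPM, such as Xcr1, Ccl11 and Cxcl13, rest on few counts, which limits the precision of their fold changes.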
